A study of Homo sapiens with 4 samples.

Results

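Androgen-regulated genes other than the kallikreins were followed in 4 prostate cancer cell lines. The list was a fixed set of 45 gene symbols, and every one of them was found among the 22637 genes of the deposited count table. HERC3 was listed under 2 identifiers, so the 45 genes filled 46 rows, and the entry ENSG00000138641.18 was used for HERC3 throughout.

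RNA was sequenced from LNCaP, a castration-sensitive prostate adenocarcinoma line, from its olaparib-resistant subline LN-OlapR, from C4-2B, a castration-resistant line, and from its olaparib-resistant subline 2B-OlapR. Olaparib is an inhibitor of the DNA repair enzyme PARP, and both resistant lines were selected from their parental line with this drug, which was also present in their routine medium. All 4 samples carried the label untreated, and per the series' design text the cells grew for 48 h without the selecting drug before RNA was taken, although the study's methods give a different time. The stated medium was RPMI with fetal serum, and no androgen or antiandrogen was stated to be added. Each line gave 1 library, and each resistant line was 1 derived line, so there was no test within a pair of lines and no culture-to-culture spread could be measured. Total counts were 26394267 in LNCaP and 24278062 in LN-OlapR, against 19950537 in C4-2B and 20796946 in 2B-OlapR. Levels are normalized CPM, the counts of a gene scaled to a common library size, and the intervals given with them cover counting error only, at the 95% level. In bulk RNA, fewer cells with a transcript and less of it per cell cannot be told apart.

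Androgens such as testosterone and dihydrotestosterone are steroid hormones that change transcription in the nucleus of luminal prostate cells. They act through DNA motifs called androgen response elements, together with factors such as FOXA1 and HOXB13. The genes that androgens induce there encode secreted proteins, lipid and polyamine enzymes, ion transporters and inhibitors of other signalling pathways, and some of them, such as FKBP5 and SGK1, also respond to the glucocorticoid receptor. Castration-resistant cells can keep this programme active when androgen is low.

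The luminal identity of the lines was checked first. The luminal markers KRT8, KRT18, HOXB13 and FOLH1 lay between 259.8 and 735 CPM in every library, and the other luminal markers on the list were KLK3, at 53.1 CPM in LNCaP and between 1870.1 and 2685 CPM elsewhere, and the member TMPRSS2, between 130.4 and 485 CPM. The basal keratin KRT14 lay between 0.112 and 0.557 CPM and the neuroendocrine marker SYP between 2.44 and 3.13 CPM. Of the fibroblast markers, COL1A1 lay between 7.14 and 16.1 CPM, COL3A1 between 0.0483 and 1.08 CPM and PDGFRB between 0.707 and 2.74 CPM. KRT5, TP63, CHGA, INSM1, PTPRC, CD3E and HBB were not analysed here.

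Promoters of the members were searched for AGAACA, the hexamer that forms each arm of the canonical androgen response element, on both strands. In the full element AGAACA is followed by a spacer of 3 bases and then by TGTTCT. The windows were RefSeq promoter sequences of GRCh38.p14 and ran from 250 bases before to 50 bases after each annotated start. They were available for 36 of the 45 members, in 74 windows. The hexamer was in 7 of these windows (9.46%), beside 5192 of 35116 windows (14.8%) of all genes. Counted by gene, it was in a window of 6 of the 36 members (16.7%), beside 4790 of 27305 genes (17.5%). The full element was in 0 of the 74 windows and in 1 window of all genes. The 7 matches are shown because 4 of their 6 genes are among the members at least 2-fold higher in LN-OlapR. Each line gives 30 bases, 5′ to 3′ on the strand of the gene, with the hexamer or its reverse complement in capitals.
FKBP5, chr6:35728566-35728595, minus strand: caccactaccccAGAACAaactcctacctc
SGK1, chr6:134177839-134177868, minus strand: ggggttcataacAGAACAgggatagccgtc
PMEPA1, chr20:57710789-57710818, minus strand: acctgaagaatgTGTTCTtgtagcactcct
PMEPA1, chr20:57711433-57711462, minus strand: cttgacttctccAGAACAagcctcctggtc
TRPM8, chr2:233979971-233980000, plus strand: gacatgaagagcAGAACAgccagtgtgcta
LIFR, chr5:38557458-38557487, minus strand: attgtgccgaagAGAACAccatcaaacgcg
TSC22D1, chr13:44474418-44474447, minus strand: tcatagtattttTGTTCTctttgaagtaat

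Counting an annotated start as base 1, the capitals begin on base 1 for FKBP5, base 6 for SGK1 and base 23 for one PMEPA1 start. They begin 8 bases upstream of a start of LIFR and 94 upstream of one of TSC22D1. For TRPM8 they begin 166 bases upstream of a start, and for another PMEPA1 start 229 upstream. A gene can have several annotated starts. Those matched for SGK1, LIFR, TSC22D1 and TRPM8 lie inside the gene, away from its 5′ end. A match to 6 letters is a description of the window and does not show that anything binds there.

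The median log2 ratio of the members was above 0 in one resistant line and below 0 in the other, while single members moved both ways in each. In LN-OlapR, 28 of the 45 members (62.2%) were higher than in LNCaP, beside 49.6% of all genes. The members' log2 ratios had a median of 0.31 and quartiles of -0.25 and 0.73. The median was 0.00 over the 15373 genes that had a mean of at least 1 CPM in that pair of lines. In 2B-OlapR, 32 of the 44 members that passed the same filter were lower than in C4-2B. The other 12 (27.3%) were higher, beside 50.0% of all genes. The members' log2 ratios there had a median of -0.41 and quartiles of -0.88 and 0.01, beside a median of 0.00 over 15527 genes. HPGD did not pass in the C4-2B pair, where it had 3 and 2 counts.

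At least 2-fold higher in LN-OlapR were 10 of 45 members (22.2%), namely TMPRSS2, AZGP1, FKBP5, SGK1, PMEPA1, NDRG1, STEAP4, TRPM8, HERC3 and CENPN, beside 4.64% of all genes. ADAMTS1, RHOU, HPGD and ARID5B, 4 of 45 members (8.89%), were at least 2-fold lower there, beside 4.83% of all genes. In 2B-OlapR only TMPRSS2, SGK1 and TRPM8, 3 of 44 members (6.82%), were at least 2-fold higher than in C4-2B, beside 4.42% of all genes. INPP4B, RHOU, SLC45A3, ACSL3, ALDH1A3, MAF, ARID5B and RAB3B were at least 2-fold lower in 2B-OlapR, 8 of 44 members (18.2%) beside 5.65% of all genes.

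**Figure D1:**
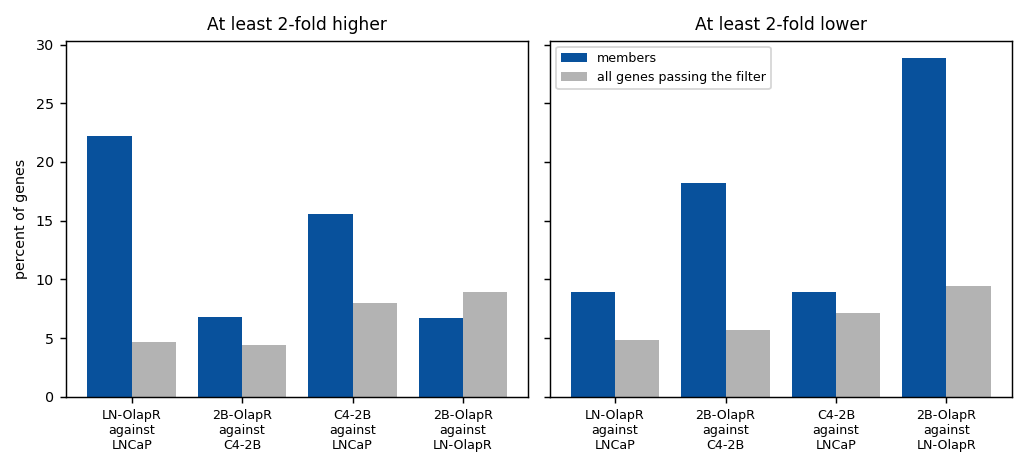
Percent of members (blue) and of all genes that passed the filter (grey) that were at least 2-fold higher (left) or at least 2-fold lower (right) in each comparison of 1 library with 1 library. The blue bar reaches 22.2% for genes higher in LN-OlapR than LNCaP and 28.9% for genes lower in 2B-OlapR than in LN-OlapR, where the grey bars stand at 4.64% and 9.45%.

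The LNCaP pair and the C4-2B pair share no library, so their ratios could be set against each other. The log2 ratio of the LNCaP pair was above that of the C4-2B pair for 38 of 44 members (86.4%), beside 50.4% of the 14602 genes that passed in both pairs, with a median difference of 0.60 beside 0.01. The counting interval of the difference lay above 0 for 36 members (81.8%), beside 30.5% of all genes, and below 0 for 5 members (11.4%), beside 28.9% of all genes. The difference reached 2-fold for 14 members (31.8%), AZGP1, FKBP5, PMEPA1, INPP4B, NDRG1, STEAP4, SLC45A3, LIFR, ACSL3, SORD, GNMT, MAF, HERC3 and CENPN, beside 7.43% of all genes. In the other direction it reached 2-fold for 1 member, EAF2 (2.27%), beside 5.66% of all genes. Both resistant lines were above their parental lines for 10 members and below them for 14, 18 members were higher in LN-OlapR and lower in 2B-OlapR, and 2 members, DBI and EAF2, were lower in LN-OlapR and higher in 2B-OlapR. The shares of all genes with these patterns were not counted.

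At least 2-fold higher in both resistant lines were TMPRSS2, SGK1 and TRPM8, 3 of 44 members (6.82%), beside 0.836% of all genes. At least 2-fold lower in both were RHOU and ARID5B, 2 of 44 members (4.55%), beside 1.09% of all genes. No member was 2-fold higher in one resistant line and 2-fold lower in the other, and the share of all genes with such a split was not counted. A fit over all 4 libraries, with the parental background as a block and 1 residual degree of freedom, called 0 members and 0 of 14602 genes at an adjusted p under 0.05 (edgeR quasi-likelihood test, Benjamini-Hochberg). At an unadjusted p under 0.05 in the same test, 5 of 44 members were higher in the resistant lines, beside 593 of 14602 genes (4.06%). Lower were 7 of 44 members, beside 623 of 14602 genes (4.27%). Those called included TMPRSS2, SGK1, TRPM8, RHOU and ARID5B, already past 2-fold in both resistant lines, so these counts are not separate evidence.

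**Figure D2:**
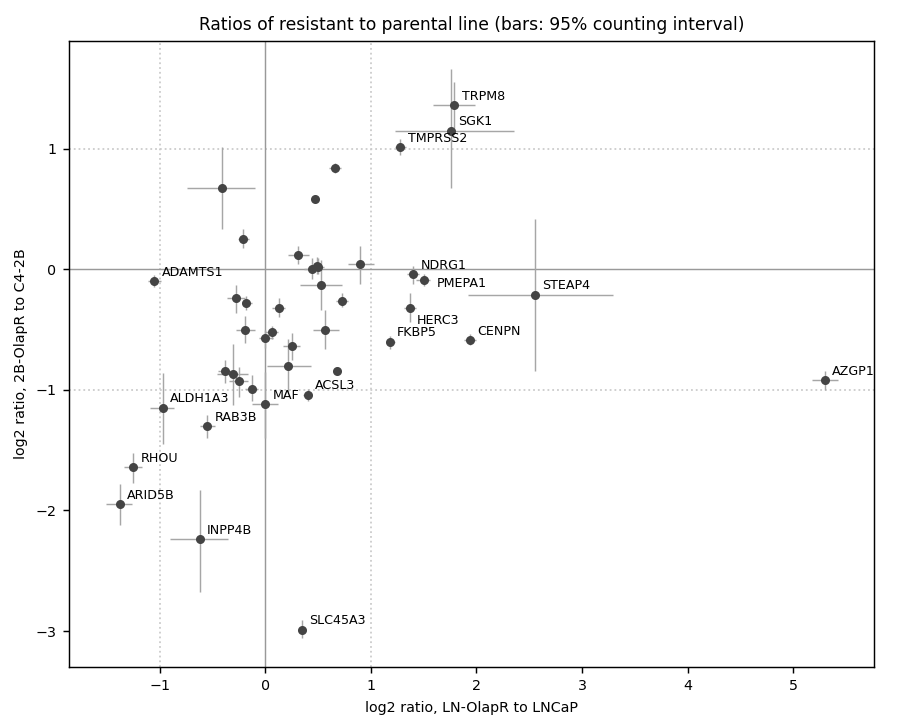
Log2 ratio of LN-OlapR to LNCaP (horizontal axis) against that of 2B-OlapR to C4-2B (vertical axis) for the 44 members that passed the filter in both pairs of lines; bars are 95% counting intervals, dotted lines mark 2-fold, and members past 2-fold in either pair are named. AZGP1 lies far to the right at 5.30, SLC45A3 lies lowest at -2.99, and only TRPM8, SGK1 and TMPRSS2 lie past 2-fold in the upper right.

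Among proteases and secreted factors, AZGP1 and TMPRSS2 were higher in LN-OlapR and ADAMTS1 was lower. AZGP1 encodes zinc-alpha-2-glycoprotein, a protein secreted into seminal fluid, and lies at chr7:99966720-99976157 on the minus strand of GRCh38. It was at 22.3 CPM in LNCaP and 878 in LN-OlapR, against 172 in C4-2B and 91.1 in 2B-OlapR. LN-OlapR was therefore 39.3-fold above LNCaP (log2 ratio 5.30, counting interval 5.18 to 5.42), which was the highest ratio of any member in that comparison. In the C4-2B pair the same gene was lower in the resistant line (log2 ratio -0.92, -1.0 to -0.84). The near-identical gene AZGP1P1 had 34, 564, 247 and 149 counts in the same order of lines, and reads could be divided between the copies.

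TMPRSS2, a transmembrane serine protease at chr21:41464551-41531116 on the minus strand, was at 199.6 CPM in LNCaP and 485 in LN-OlapR, against 130.4 in C4-2B and 263 in 2B-OlapR. Each resistant line was above its parental line, 2.43-fold in the LNCaP pair (log2 ratio 1.28, 1.23 to 1.33) and 2.02-fold in the C4-2B pair (1.01, 0.95 to 1.08). The second value rested at the 2-fold line and fell under it when libraries were scaled by total counts. ADAMTS1, a secreted metalloprotease of the extracellular matrix, was at 278, 134, 330.2 and 309 CPM in LNCaP, LN-OlapR, C4-2B and 2B-OlapR. It was 2.07-fold lower in LN-OlapR than LNCaP (log2 ratio -1.05, -1.11 to -0.99) and was the only member with its lowest level in LN-OlapR, 1 of 45 (2.22%), beside 22.5% of all genes.

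Regulators of signalling made up 10 members, with a median log2 ratio of 0.39 in the LNCaP pair and -0.55 in the C4-2B pair. For all 10 the ratio was higher in the LNCaP pair, as it was for 86.4% of all members and 50.4% of all genes. FKBP5, a cochaperone of steroid receptors and one of the most used markers of androgen response, was at 194 CPM in LNCaP and 441 in LN-OlapR, against 391 in C4-2B and 257 in 2B-OlapR. It was 2.27-fold higher in LN-OlapR (log2 ratio 1.18, 1.14 to 1.23) and 1.52-fold lower in 2B-OlapR (-0.60, -0.66 to -0.55), so that LNCaP held the lowest of its 4 levels.

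PMEPA1, a membrane protein that restrains TGF-beta signalling, was at 103, 291, 392 and 368 CPM in LNCaP, LN-OlapR, C4-2B and 2B-OlapR. It was 2.82-fold higher in LN-OlapR than LNCaP (log2 ratio 1.5, 1.43 to 1.56), and the other 3 lines lay between 291 and 392 CPM. The antisense transcript NKILA, whose exons share 343 bases with those of PMEPA1, had 135, 289, 354 and 250 counts in the same lines. NDRG1, a stress-responsive growth regulator, was at 123 CPM in LNCaP and 325 in LN-OlapR, against 143 in C4-2B and 139 in 2B-OlapR. LN-OlapR stood apart from the other 3 lines for this gene, 2.64-fold above LNCaP (log2 ratio 1.40, 1.34 to 1.46), while in the C4-2B pair the interval of the ratio spanned 0 (-0.04, -0.12 to 0.03).

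SGK1, a kinase that controls ion channels and transporters, was scarce, with 37 counts in LNCaP and 110 in LN-OlapR, against 51 in C4-2B and 115 in 2B-OlapR. Its levels were 1.38, 4.72, 2.49 and 5.55 CPM, and both resistant lines were above their parental lines. The log2 ratio was 1.76 (1.23 to 2.36) in the LNCaP pair and 1.15 (0.67 to 1.66) in the C4-2B pair, wide intervals that come with these counts.

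Lower in one or both resistant lines were INPP4B and RHOU. INPP4B, a phosphatase that removes phosphate from the phosphoinositides of the PI3K pathway, was at 11.7 CPM in LNCaP and 7.59 in LN-OlapR, against 13.3 in C4-2B and 2.80 in 2B-OlapR. It was 4.72-fold lower in 2B-OlapR than C4-2B (log2 ratio -2.24, -2.68 to -1.83) and lower by less than 2-fold in LN-OlapR (-0.62, -0.90 to -0.35). RHOU, a small GTPase, was at 150.5, 63.1, 105 and 33.7 CPM in LNCaP, LN-OlapR, C4-2B and 2B-OlapR. Both resistant lines lay under both parental lines for this gene, 2.39-fold lower in the LNCaP pair (log2 ratio -1.25, -1.34 to -1.17) and 3.12-fold lower in the C4-2B pair (-1.64, -1.77 to -1.52).

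The other 4 signalling members stayed within 2-fold in both pairs. ERRFI1, an inhibitor of the EGF receptor, had the highest log2 ratio of these in the LNCaP pair (0.90, 0.78 to 1.03), and CAMKK2, a kinase upstream of AMPK, had the lowest (-0.38, -0.45 to -0.31). In the C4-2B pair the ratios ran from 0.04 for ERRFI1 to -0.99 for HOMER2, a postsynaptic scaffold protein, and LRIG1, another inhibitor of EGF receptor family members, was at -0.50. HOMER2 lay just inside the 2-fold line and passed it when libraries were scaled by total counts.

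Transporters, channels and receptors made up 9 members, with a median log2 ratio of 0.44 in the LNCaP pair and -0.28 in the C4-2B pair. The widest gap in the C4-2B pair was in SLC45A3, which encodes prostein, a membrane transporter largely restricted to prostate, at chr1:205657851-205680459 on the minus strand. It was at 379.7 CPM in LNCaP and 485 in LN-OlapR, against 592 in C4-2B and 74.7 in 2B-OlapR. One library was low and 3 were high, and 2B-OlapR was 7.93-fold below C4-2B (log2 ratio -2.99, -3.06 to -2.91) while LN-OlapR was slightly above LNCaP (0.35, 0.31 to 0.39).

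TRPM8, the cold-sensing cation channel, was at 1.27, 4.39, 1.95 and 5.01 CPM per kilobase of exon in LNCaP, LN-OlapR, C4-2B and 2B-OlapR. Both resistant lines were above both parental lines, with a log2 ratio of 1.79 (1.59 to 1.99) in the LNCaP pair and of 1.36 (1.17 to 1.55) in the C4-2B pair. STEAP4, a metalloreductase of iron and copper, was at 0.856, 5.10, 2.35 and 2.03 CPM in LNCaP, LN-OlapR, C4-2B and 2B-OlapR. It was 5.86-fold higher in LN-OlapR than LNCaP (log2 ratio 2.55, 1.92 to 3.29), and its interval in the C4-2B pair spanned 0 (-0.21, -0.84 to 0.42).

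Within 2-fold in both pairs were the efflux pump ABCC4, the pyrophosphate transporter ANKH, the amino acid transporter SLC38A2, the nicotinic acetylcholine receptor subunit CHRNA2, the BMP receptor BMPR1B and the LIF receptor LIFR. Their log2 ratios ran from -0.31 for CHRNA2 to 0.57 for LIFR in the LNCaP pair and from -0.87 for CHRNA2 to 0.00 for ANKH in the C4-2B pair. LIFR was at 33.9 CPM in LNCaP and 50.5 in LN-OlapR, against 38.2 in C4-2B and 27.0 in 2B-OlapR, highest in one resistant line and lowest in the other.

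Metabolic enzymes made up 10 members, and none of them was 2-fold higher in a resistant line. HPGD, which inactivates prostaglandins, had 684 counts in LNCaP and 63 in LN-OlapR, against 3 in C4-2B and 2 in 2B-OlapR. Its level was 25.4 CPM in LNCaP and 2.70 in LN-OlapR, a log2 ratio of -3.23 (-3.63 to -2.86), which was the lowest of any member in that comparison. At 0.147 and 0.0965 CPM, both C4-2B lines were at or under the level that 3 counts stand for, so no fold is given between them.

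ALDH1A3, which makes retinoic acid from retinal, was at 75.7, 38.5, 15.1 and 6.80 CPM in LNCaP, LN-OlapR, C4-2B and 2B-OlapR, and each resistant line was lower than its parental line. The log2 ratio was -0.97 (-1.09 to -0.86) in the LNCaP pair, just short of 2-fold and past it when scaled by total counts, and -1.15 (-1.45 to -0.86) in the C4-2B pair. The antisense transcript AC015712.2, whose exons share 1585 bases with those of ALDH1A3, had 112, 47, 12 and 1 counts, in the same order. ACSL3, a long-chain acyl-CoA synthetase, was at 333 CPM in LNCaP and 439 in LN-OlapR, against 486 in C4-2B and 237 in 2B-OlapR. It was 2.05-fold lower in 2B-OlapR than C4-2B (log2 ratio -1.04, -1.09 to -0.99) and above LNCaP in LN-OlapR (0.40, 0.36 to 0.44).

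The other 7 enzymes stayed within 2-fold in both pairs. In the LNCaP pair their log2 ratios ran from -0.21 for DBI, the acyl-CoA binding protein, to 0.73 for UAP1, which makes UDP-N-acetylglucosamine. In the C4-2B pair they ran from -0.84 for SORD, sorbitol dehydrogenase, to 0.84 for PLPP1, a lipid phosphate phosphatase. SORD was at 855, 1367, 1016 and 568 CPM in LNCaP, LN-OlapR, C4-2B and 2B-OlapR, and its near copy SORD2P followed the same order with 1404, 2002, 1469 and 814 counts. PLPP1 and the hydrolase ABHD2 were higher in both resistant lines, PLPP1 at 149.7, 237, 336 and 600.1 CPM and ABHD2 at 1519, 2097, 1702 and 2544 CPM. The spermine synthase SMS and the glycine methyltransferase GNMT were higher in LN-OlapR (0.13 and 0.22 on the log2 scale) and lower in 2B-OlapR (-0.32 and -0.80).

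Transcription and elongation factors made up 7 members, with a median log2 ratio of 0.00 in the LNCaP pair and -0.52 in the C4-2B pair. ARID5B, a DNA-binding partner of a histone demethylase, was at 74.8 CPM in LNCaP and 28.7 in LN-OlapR, against 66.8 in C4-2B and 17.3 in 2B-OlapR. Both parental lines were above both resistant lines, by 2.61-fold in the LNCaP pair (log2 ratio -1.38, -1.51 to -1.26) and 3.86-fold in the C4-2B pair (-1.95, -2.12 to -1.78). MAF, a basic leucine zipper factor, was at 42.2, 42.1, 17.2 and 7.91 CPM in LNCaP, LN-OlapR, C4-2B and 2B-OlapR. It was even between the LNCaP lines (log2 ratio 0.00, -0.13 to 0.12), 2.17-fold lower in 2B-OlapR than C4-2B (-1.12, -1.40 to -0.85) and lower in both C4-2B lines than in both LNCaP lines.

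The remaining 5 factors stayed within 2-fold. In the LNCaP pair they ran from EAF2 at -0.41 to its partner in transcription elongation ELL2 at 0.31, and in the C4-2B pair from TSC22D1 at -0.64 to EAF2 at 0.67. EAF2 was at 7.77 CPM in LNCaP and 5.83 in LN-OlapR, against 5.82 in C4-2B and 9.27 in 2B-OlapR, lower in one resistant line and higher in the other. SPDEF, an ETS factor of luminal and goblet cells, was at 157, 164, 294 and 204 CPM, highest in C4-2B, and the zinc finger gene ZBTB10 was lower in both resistant lines (-0.28 and -0.24).

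Of the 3 trafficking and ubiquitin genes, HERC3, a ubiquitin ligase, was at 123 CPM in LNCaP and 317 in LN-OlapR, against 59.2 in C4-2B and 47.4 in 2B-OlapR. LN-OlapR stood above the other 3 lines, 2.58-fold over LNCaP (log2 ratio 1.37, 1.31 to 1.43), and 2B-OlapR was lower than C4-2B (-0.32, -0.44 to -0.20). The second entry under this symbol, ENSG00000287542.1, was at 23.6, 33.7, 6.60 and 5.65 CPM, again highest in LN-OlapR but by less than 2-fold (0.51, 0.36 to 0.66). RAB3B, a small GTPase of secretory vesicles, was at 172, 118, 141 and 56.9 CPM in LNCaP, LN-OlapR, C4-2B and 2B-OlapR. It was lower in both resistant lines, past 2-fold only in 2B-OlapR (log2 ratio -1.30, -1.40 to -1.21, against -0.55, -0.62 to -0.48). TPD52, a vesicle trafficking protein, was higher in LN-OlapR (0.50, 0.43 to 0.56) and its interval in the C4-2B pair spanned 0 (0.02, -0.04 to 0.09).

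Of the 3 cell division genes, CENPN, a centromere protein that reads the CENP-A nucleosome, was at 99.7 CPM in LNCaP and 382 in LN-OlapR, against 513 in C4-2B and 341 in 2B-OlapR. LNCaP was low and the other 3 lines were high, with LN-OlapR 3.83-fold above LNCaP (log2 ratio 1.94, 1.88 to 2.00) and 2B-OlapR below C4-2B (-0.59, -0.63 to -0.54). The exons of CENPN share 457 bases with those of CMC2 on the other strand, which had 1300, 1242, 3730 and 1897 counts, and whether the counting used strand is not given in the sources used here. The condensin subunit NCAPD3 was within 2-fold in both pairs (0.49 and 0.03), as was MPHOSPH9, a centriolar protein (-0.25 and -0.93).

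**Figure D3:**
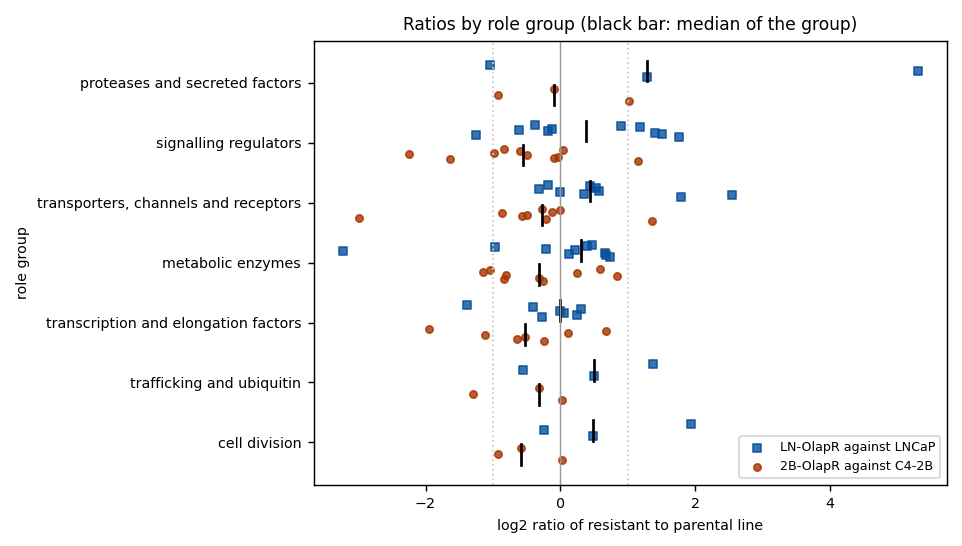
Log2 ratio of each member, resistant over parental line, by role group, with squares for the LNCaP pair, circles for the C4-2B pair and a black bar for the median of each group in each pair. The medians of the LNCaP pair lie between 0.00 and 1.28 and those of the C4-2B pair between -0.59 and -0.10.

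Across all 4 libraries, 2B-OlapR and LNCaP held the lowest level most often, among the members and also among all genes. The lowest level was in 2B-OlapR for 23 of 45 members (51.1%), beside 30.6% of the 15645 genes that passed the filter over the 4 libraries. It was in LNCaP for 15 members (33.3%), beside 25.8%, among them AZGP1, FKBP5, PMEPA1, NDRG1, STEAP4, TRPM8 and CENPN. C4-2B held the lowest level of 6 members (13.3%), beside 21.4%, among them TMPRSS2.

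The highest level was in LN-OlapR for 16 members (35.6%), beside 23.1% of all genes, and in LNCaP for 14 members (31.1%), beside 27.2%. C4-2B held the highest level of 9 members (20%), beside 20.3%, and 2B-OlapR that of 6 members (13.3%), beside 29.4%. The 6 members highest in 2B-OlapR were SGK1, TRPM8, PLPP1, ABHD2, ELL2 and EAF2. Together the members took 0.766% of all counts in LNCaP and 1.06% in LN-OlapR, against 0.943% in C4-2B and 0.808% in 2B-OlapR.

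Compared per kilobase of exon (normalized CPM divided by the exon length in GENCODE 29), the most abundant member differed between lines. ABHD2 led in LNCaP at 147 CPM per kilobase, AZGP1 in LN-OlapR at 325, and PLPP1 in C4-2B at 166 and in 2B-OlapR at 298. AZGP1 stood at 8.27 CPM per kilobase in LNCaP, under the median member at 13.4. The median member was at 16.1, 18.8 and 10.5 in LN-OlapR, C4-2B and 2B-OlapR. STEAP4 was the lowest member in both LNCaP lines, at 0.0761 and 0.454, and HPGD in both C4-2B lines, at 0.0265 and 0.0175.

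**Figure D4:**
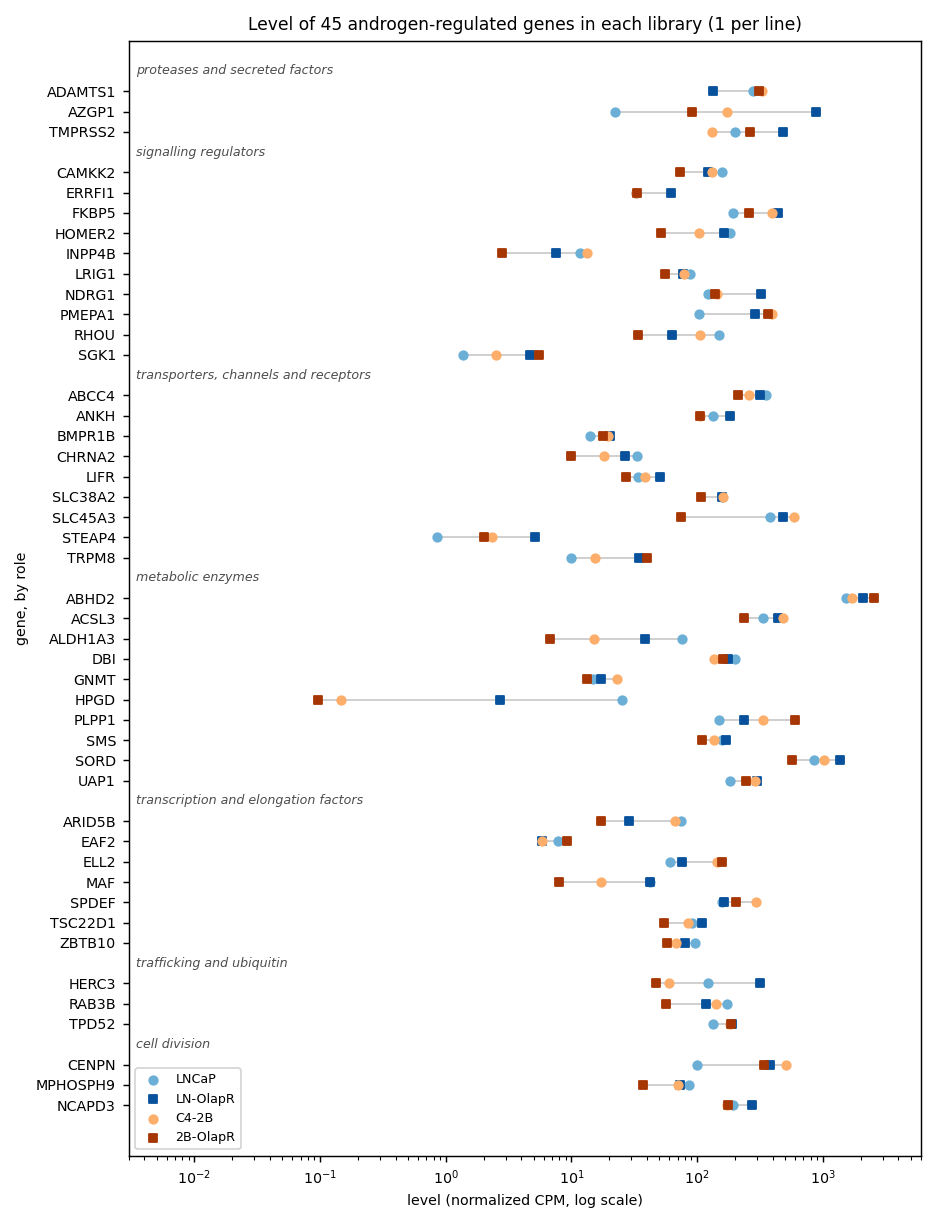
Level of each of the 45 members in each of the 4 libraries, in normalized CPM on a log scale, grouped by role; light symbols are parental lines, dark squares are resistant lines and a grey line joins the 4 values of a gene. HPGD spans the widest range, from 0.0965 CPM in 2B-OlapR to 25.4 in LNCaP, and AZGP1 runs from 22.3 CPM in LNCaP to 878 in LN-OlapR.

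The parental lines, of which C4-2B derives from LNCaP, were compared with each other to see which members differed between them. This comparison shares LNCaP with the LNCaP pair and C4-2B with the C4-2B pair, so its values are given on their own. In C4-2B, 23 of 45 members (51.1%) were higher than in LNCaP, beside 48.6% of all genes. The members' log2 ratios had a median of 0.02, beside -0.02 over 15580 genes. At least 2-fold higher were AZGP1, FKBP5, PMEPA1, STEAP4, PLPP1, ELL2 and CENPN, 7 of 45 members (15.6%), beside 8.00% of all genes. The widest of these was AZGP1 with a log2 ratio of 2.95 (2.82 to 3.08), followed by CENPN at 2.36 (2.30 to 2.43).

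At least 2-fold lower in C4-2B than in LNCaP were HPGD, ALDH1A3, MAF and HERC3, 4 of 45 members (8.89%), beside 7.18% of all genes. HPGD, with 684 counts against 3, had a log2 ratio of -7.22 (-9.72 to -5.89), and ALDH1A3 was 4.99-fold lower (-2.32, -2.50 to -2.15). INPP4B, ERRFI1 and SLC38A2 had intervals that spanned 0.

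The resistant lines were then compared with each other, a comparison that shares a library with each pair. In 2B-OlapR, 36 of 45 members were lower than in LN-OlapR, and their log2 ratios had a median of -0.74, beside -0.01 over 15539 genes. At least 2-fold lower were 13 members (28.9%), AZGP1, INPP4B, NDRG1, HOMER2, STEAP4, SLC45A3, CHRNA2, SORD, HPGD, ALDH1A3, MAF, RAB3B and HERC3, beside 9.45% of all genes. ADAMTS1, PLPP1 and ELL2 were at least 2-fold higher, 3 members (6.67%) beside 8.93% of all genes.

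SLC45A3 was 6.50-fold lower in 2B-OlapR than in LN-OlapR (log2 ratio -2.70, -2.78 to -2.62), HERC3 6.68-fold lower (-2.74, -2.84 to -2.64) and AZGP1 9.64-fold lower (-3.27, -3.34 to -3.20). PLPP1, the highest ratio in this comparison, was at 1.34 (1.30 to 1.39). TPD52, SGK1 and BMPR1B had intervals that spanned 0.

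The 6 members with the hexamer in a promoter window were all higher in LN-OlapR than LNCaP, beside 49.6% of all genes. Of them 4, FKBP5, SGK1, PMEPA1 and TRPM8, were at least 2-fold higher, beside 6.32% of all genes with the hexamer. Of the 30 members whose windows lacked it, 4 passed 2-fold upward and 3 downward, beside 3.93% and 4.34% of all genes whose windows lacked it. In the C4-2B pair, 2 of the 6 were at least 2-fold higher, SGK1 and TRPM8, beside 5.17%, and the other 4 were lower by less than 2-fold. Of 29 members whose windows lacked the hexamer and that passed the filter there, 0 were at least 2-fold higher, beside 4.05% of such genes, and 8 were lower, beside 5.23%. The 9 members with no window had 2 higher and 1 lower by 2-fold in the LNCaP pair, beside 4.64% and 4.83% of all genes. In the C4-2B pair they had 1 higher and 0 lower, beside 4.42% and 5.65% of all genes. AZGP1, the member with the highest ratio, had 1 window and no match in it. These groups were formed after the values were seen and were not tested.

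Other androgen-regulated genes and pioneer factors, which open chromatin for hormone-driven transcription, were followed beside the members. The 7 other androgen-induced genes were KLK2, KLK3, KLK4, STEAP1, STEAP2, CREB3L4 and PART1. In LN-OlapR 6 of them were higher than in LNCaP, beside 49.6% of all genes, and 2 by at least 2-fold, beside 4.64%. In 2B-OlapR 2 of them were higher than in C4-2B, beside 50.0% of all genes, and 1 by at least 2-fold, beside 4.42%. KLK3, which encodes prostate-specific antigen, was at 53.1 CPM in LNCaP and 2685 in LN-OlapR, against 2412 in C4-2B and 1870.1 in 2B-OlapR, and LNCaP was the low library for this gene as it was for AZGP1, FKBP5, PMEPA1 and CENPN. KLK4 had the 2-fold difference in the C4-2B pair, at 448 CPM in 2B-OlapR and 137 in C4-2B.

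Of 5 androgen-repressed genes that passed the filter in the LNCaP pair, 4 were at least 2-fold lower in LN-OlapR, beside 4.83% of all genes. Among these was OPRK1, with 55 counts in LNCaP and 1 in LN-OlapR. Of 4 that passed in the C4-2B pair, 3 were at least 2-fold lower in 2B-OlapR, beside 5.65% of all genes. UGT2B15, an enzyme that conjugates androgens for removal, was at 74.7 CPM in LNCaP and 0.815 in LN-OlapR, against 16.3 in C4-2B and 2.90 in 2B-OlapR, and its relative UGT2B17 was at 47.9, 0.343, 5.67 and 0.869 CPM. LNCaP was the highest library for both. CAMK2N1, an inhibitor of CaM kinase, went the other way in the C4-2B pair, at 354 CPM in 2B-OlapR and 11.6 in C4-2B.

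Of 4 pioneer factor genes, FOXA1, HOXB13, GATA2 and GRHL2, GATA2 was the only one past 2-fold in a resistant line, at 582 CPM in 2B-OlapR and 253 in C4-2B. FOXA1, HOXB13 and GRHL2 stayed within 2-fold in both pairs, with log2 ratios from -0.38 for FOXA1 in the C4-2B pair to 0.58 for GRHL2 in the LNCaP pair. NR3C1, the glucocorticoid receptor gene, and the androgen-repressed gene CCN3 were not analysed here. The part of these factors in the members' levels was not tested.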

How the data were processed

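Total RNA was isolated with TRIzol from 1 culture of each line, and the authors made stranded mRNA libraries from 100 ng per the labels. The submitters' processing notes name STAR, Partek and GRCh38 (hg38), without versions, and the counting step and annotation are not given in the sources used here. The deposited values were estimated counts per gene (46.2% of values were not whole), not scaled between libraries. The smallest sum of a gene over the libraries was 10.0, the mark of an earlier filter on low sums.

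Counts were rounded to whole numbers. The planned comparison had assumed plain counts and kept its form. TMM factors came from edgeR 4.0.16 in R 4.3.3, and the rest from Python 3.11.15 with SciPy 1.17.1. Log2 ratios used a pseudocount of 0.5 counts. The filter kept genes whose normalized CPM averaged 1 or more in the libraries compared, and a ratio of at least 2 either way counted as higher or lower. Intervals at the 95% level were exact Poisson intervals for levels, exact conditional binomial intervals for ratios and normal intervals for differences of ratios. No fold is given where both libraries had 3 counts or fewer (0.112 to 0.147 CPM). The ratio step and the blocked fit were checked on simulated counts. For the fit, 200 genes were set 8-fold apart at a dispersion (spread beyond counting error) of 0.05, beside 0.0657 in the data. Whether the fit recovers 2-fold differences was not tested.

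All 45 members are accounted for. Members past 2-fold in a resistant line are given in every library, and the others by range, with the highest and lowest of each role group. Some genes of the comparison lists are not reported here, and counts over those lists leave them out. Members and lists were chosen with earlier results of these data known. Gene positions and exon lengths came from GENCODE 29. Scaling, filter, pseudocount and fold were varied, and the sum of both HERC3 entries and a fit of resistant against parental lines (edgeR quasi-likelihood test, parental background as a block) were added after seeing the data. That fit takes the LNCaP and C4-2B backgrounds as replicates, although C4-2B derives from LNCaP.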

Additional observations from a re-analysis of the deposited data

Results flagged for a closer look

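Results were listed here where the LNCaP pair and the C4-2B pair, with 1 library per line, had ratios on opposite sides of 0. For single members, at least 2-fold in 1 pair and counting intervals that left out 0 in both were also required. By sign alone, 18 members were higher in LN-OlapR and lower in 2B-OlapR, and 2 went the other way. The difference between the pairs was not tested, since no line had a second library. The members' quartiles were -0.25 and 0.73 in the LNCaP pair and -0.88 and 0.01 in the C4-2B pair. The median log2 ratio of the members was 0.31 for LN-OlapR against LNCaP and -0.41 for 2B-OlapR against C4-2B. For single members, the log2 ratio of the LNCaP pair minus that of the C4-2B pair was 6.22 for AZGP1, 3.34 for SLC45A3, 2.52 for CENPN, 1.79 for FKBP5, 1.69 for HERC3, 1.59 for PMEPA1 and 1.43 for ACSL3. In AZGP1, CENPN, FKBP5 and PMEPA1 the low library of the 4 was LNCaP. In SLC45A3 and ACSL3 it was 2B-OlapR. In HERC3 the high library was LN-OlapR.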

How the results depend on the processing

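With 1.5-fold in place of 2-fold, 5 members were higher and 18 lower in 2B-OlapR than C4-2B, 13 were higher and 7 lower in C4-2B than in LNCaP, and 26 were lower in 2B-OlapR than in LN-OlapR, each more than 1.5 times the count at 2-fold. The shares of all genes at 1.5-fold were not counted, so these counts show only how the cut changes them. Total counts, DESeq2 size factors, upper quartile factors, no filter, a minimum mean of 10 CPM, a pseudocount of 2, a counting interval on 1 side of 0 and both HERC3 entries summed left the other counts within 1.5 times, and no median or named ratio called at 2-fold changed sign. Under total counts ALDH1A3 passed 2-fold in the LNCaP pair, HOMER2 passed and TMPRSS2 no longer did in the C4-2B pair, and RAB3B no longer did between the resistant lines. The median of all genes moved by at most 0.08 on the log2 scale under any scaling. With the parental background as a replicate block (edgeR quasi-likelihood test, 1 residual degree of freedom), 0 members were called higher and 0 lower over both resistant lines, against 3 and 2 past 2-fold in both. That fit called 0 of all 14602 genes at its adjusted p cut, a cut unlike 2-fold, so it cannot decide on the 2-fold calls. No replicate could be left out, since each line has 1 library. Depth limited HPGD in both C4-2B lines, SGK1 and STEAP4.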
